A study of Mus musculus with 24 samples.

Results

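The 10 genes described here encode the AP-1 proteins of the Fos family (Fos, Fosb, Fosl1, Fosl2) and the Jun family (Jun, Junb, Jund), the zinc-finger factors Egr1 and Egr2, and Atf3, a stress-induced partner of Jun proteins. They were chosen by gene name out of 25755 genes in the tables, each name matched 1 gene, and all 10 passed the filter on low values in every comparison. Dermal papilla (DP) cells, the mesenchymal cells at the base of the hair follicle, were marked with YFP, sorted from mouse skin and profiled by RNA sequencing. Control and dM1/2 mice were compared at postnatal day (P) 20 and P60, in the resting phase (telogen), and at P24 and P28, in early and mid growth (anagen), with 3 libraries per group, 8 groups and 24 libraries.

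Every mouse carried Cor-cre, a Cre driven from the Corin locus that recombines in the DP, and dM1/2 mice were Hdac1Flox/Flox; Hdac2Flox/Flox on top of it, a design that deletes both histone deacetylase genes in cells where this Cre is active. The controls had one or both genes floxed, never both on both chromosomes, and some listed control genotypes are homozygous for a single one of them; the labels do not say which genotype each control library had. According to the study's methods, P20 mice were females, P24 and P28 mice were males and P60 mice could be either, so that hair cycle stage, sex and the deeper sequencing of the anagen libraries cannot be told apart when ages are compared. Whether each library came from a single mouse or from a pool is not stated in the labels. The study's description of the sort says that the skin of each mouse was dissociated and sorted separately.

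AP-1 is a dimer. A Fos protein must pair with a Jun protein to bind DNA, whereas Jun proteins can also pair with each other or with ATF proteins, and the dimers bind the short palindrome TGANTCA in promoters and enhancers. Most of these genes are immediate early genes: their transcription starts within minutes of a growth factor, of stretch or of stress, without new protein synthesis, through serum response factor (SRF) with its ternary complex factors at CArG boxes and through CREB and ATF proteins at sites with the core TGACG. Egr1 and Egr2 bind GC-rich sites such as GCGNGGGCG and induce their own co-repressors. In skin the same genes are also known to rise when tissue is digested with enzymes and sorted. Control and dM1/2 cells went through the same digestion and sort, and no unsorted sample was analysed here, so that the level in skin and the level added by sorting cannot be told apart.

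The stretches of 100 bases before the start sites of Fos, Fosb, Atf3 and Egr2 are shown because they hold such sites. They come from RefSeq (GRCm38.p6), are written 5′ to 3′ on the strand of the gene, and have the searched motifs in capitals (TGACG or its reverse complement, GCGNGGGCG, and the CArG box).
Fos, chr12:85473790-85473889, plus strand: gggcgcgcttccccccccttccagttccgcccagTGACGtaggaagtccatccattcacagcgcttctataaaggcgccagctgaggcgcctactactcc
Fosb, chr7:19310046-19310145, minus strand: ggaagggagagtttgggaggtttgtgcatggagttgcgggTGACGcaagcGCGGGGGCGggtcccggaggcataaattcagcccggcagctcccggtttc
Atf3, chr1:191183334-191183433, minus strand: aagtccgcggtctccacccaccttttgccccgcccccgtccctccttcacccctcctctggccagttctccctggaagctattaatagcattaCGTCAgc
Egr2, chr10:67537769-67537868, plus strand: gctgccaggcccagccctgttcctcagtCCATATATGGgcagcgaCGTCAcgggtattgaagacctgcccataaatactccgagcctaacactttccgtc

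Of the 10 genes, 8 had a promoter in the RefSeq table (12 windows in all), and Fosl1 and Egr1 had none. Over the 250 bases before the start site, searched on both strands, TGACG was present upstream of Fos, Fosb, Junb, Egr2 and Atf3, and in 17.8% of all 32851 promoters. The Fos window held it at -129 and at -66. Within these 250 bases the CArG box matched only in windows of Egr2, and in 1.47% of all promoters. Bases farther upstream were not searched, and Fosl1 and Egr1 could not be searched. A gene without a match here may therefore still have a CArG box. The Egr site GCGNGGGCG, present in 4.7% of all promoters, matched upstream of Fosb and Fosl2. The full palindrome TGACGTCA (1.55% of all promoters) and the AP-1 site TGANTCA (6.75%) matched in none of these windows, which says only that these letters are not in the 250 bases searched.

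Levels are given as normalised reads, that is, as read counts over a size factor for each library. The P24 and P28 libraries held 35469841 to 49331751 reads on genes, the P20 libraries 11635062 to 13369732 and the P60 libraries 8171944 to 9724000. Markers of the DP were read in every group (none of 16 at 0). Hdac1, the deleted gene, was between 668 and 675 in P24 controls and between 116 and 209 in P24 dM1/2 libraries, the only age at which it passed the test (adjusted p = 0.00167, limma). Hdac1 varied widely among the P28 controls, at 214, 529 and 105 in the order of their replicate numbers. The level of 105, in P28 control 3, lay below all 3 P28 dM1/2 libraries, between 126 and 190. A listed control genotype is homozygous for floxed Hdac1, and which genotype this library had is not known. Results at P28 are given with and without the library labelled P28 control 3. Hdac2 passed at no age, and the reads of both genes were counted over the whole gene.

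The AP-1 and Egr genes were among the most abundant messages of the sorted cells. Per kilobase of exon, Fos lay between 10190 and 45422 normalised reads, which placed it between rank 7 and rank 25 of 25431 genes. Jun (rank 16 to 50), Junb (14 to 85), Egr1 (20 to 111), Fosb (16 to 136) and Jund (47 to 176) followed. The stress-induced Atf3 lay between rank 39 and rank 444 in 23 libraries and at rank 2346 in P28 control 3. Fosl2 covered a wide span (203 to 2630). Egr2 (336 to 5941) and Fosl1 (2394 to 11539) were low. Ordered by their median per kilobase over the 24 libraries, the genes ran Fos, Jun, Junb, Egr1, Fosb, Jund, Atf3, Fosl2, Egr2 and Fosl1, from 20126 for Fos to 43.0 for Fosl1, and the range of each gene overlapped that of its neighbour in this order. The 10 genes together took 0.617% to 1.08% of reads on genes at P20 and 1.49% to 1.97% at P60.

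**Figure D1:**
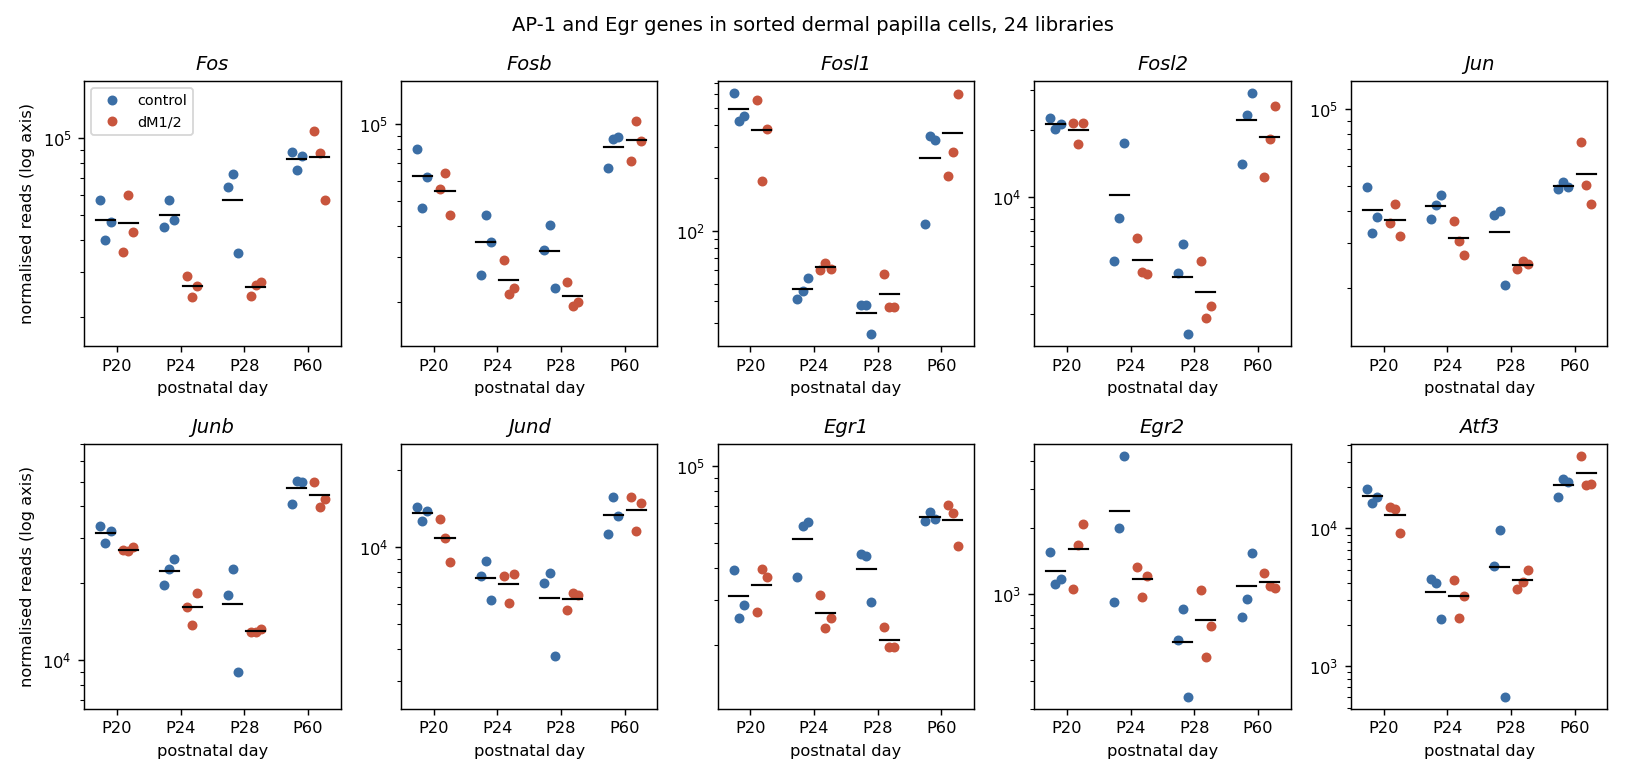
Normalised reads (log axis) of the 10 genes in each of the 24 libraries, by postnatal day, with control libraries in blue, dM1/2 libraries in red and group means as black bars. Fos and Egr1 in dM1/2 lie below every control at P24 and P28 and overlap with controls at P20 and P60, and the lowest Atf3 value, 599, belongs to P28 control 3.

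Loss of Hdac1 and Hdac2 went with lower Fos and Egr1 in anagen, by a factor of about 1.9 to 2.1, and with no detected difference in any of the 10 genes in telogen. Fos, the inducible partner of the Jun proteins (chr12:85473890-85477273, plus strand, GRCm38), held 44919, 57346 and 47823 normalised reads in the P24 controls. The P24 dM1/2 libraries held 28940, 23968 and 26257. The groups did not overlap, and the difference was -0.92 ± 0.21 (log2, SE, n = 3 per group), 1.89-fold lower (adjusted p = 0.0173, limma). At P28, Fos was at 64452, 72240 and 35481 in the controls and at 24154, 26649 and 27322 in dM1/2. The third control lay well under the other controls but still above every dM1/2 library. The P28 difference was -1.08 ± 0.35 (2.11-fold lower, adjusted p = 0.0498, limma), and without P28 control 3 it was -1.39 ± 0.26 (adjusted p = 0.00433).

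Egr1, an inducible factor that binds GC-rich promoters, lies on chromosome 18. It was at 36768, 58347 and 60586 normalised reads in P24 controls and at 31290, 23184 and 25478 in P24 dM1/2 libraries. At P28 it was at 45155, 44591 and 29503 in controls and at 23600, 19559 and 19648 in dM1/2. At neither age did the groups overlap. Egr1 fell at P24 (-0.94 ± 0.27 on the log2 scale, adjusted p = 0.0378, limma) and at P28 (-0.90 ± 0.27, adjusted p = 0.0400). Without P28 control 3 the P28 difference was -1.11 ± 0.23 (adjusted p = 0.00768). These calls are close to the threshold of 0.05. When each library was left out in turn, Fos passed in 3 of 6 fits and Egr1 in 1 of 6 at P24, and at P28 each passed only in the fit without P28 control 3. The direction did not change in any of these fits: Fos stayed between -0.99 and -0.82 at P24 and between -1.39 and -0.88 at P28, and Egr1 between -1.17 and -0.81 and between -1.11 and -0.80.

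So 2 of the 10 genes passed at P24, both lower in dM1/2, while 26.6% of all genes tested passed and 11.8% passed as lower. At P28 it was again 2 of 10, with a background of 35.5% in either direction and 15.6% lower. The count of called genes is therefore near the background at both ages, and the size and the order of the values carry the description. The median of the 10 log2 differences was -0.48 at P24, against -0.01 over all genes, and -0.21 at P28, against 0.00.

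A fit chosen after the data had been seen averaged the genotype difference over P24 and P28, with 12 libraries. In it, Fos differed by -0.998 ± 0.19 (adjusted p = 0.00134, limma), Egr1 by -0.92 ± 0.19 (adjusted p = 0.00182) and Fosb by -0.51 ± 0.19 (adjusted p = 0.0424), with 49.8% of all genes called and 23.2% lower. Fos and Egr1 passed in all 12 fits that left out a library, and Fosb in 4 of 12. An exact two-sided permutation of the genotype labels within each age had 400 arrangements. This exact permutation gave p = 0.005 for Fos and for Egr1, the smallest that it allows. For these genes that value follows from the lack of overlap at both ages, given above, and adds nothing to it. The same exact permutation gave p = 0.025 for Fosb and p = 0.05 for Jun. For Fosl1 (0.38, higher in dM1/2) the exact permutation gave p = 0.03, in the other direction. These permutation values are unadjusted, and Jun and Fosl1 did not pass in limma. Without P28 control 3, Jun (-0.55 ± 0.14, adjusted p = 0.00715) and Junb (-0.56 ± 0.13, adjusted p = 0.00382) passed as well in the averaged limma fit, in which 52.7% of all genes were called.

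**Figure D2:**
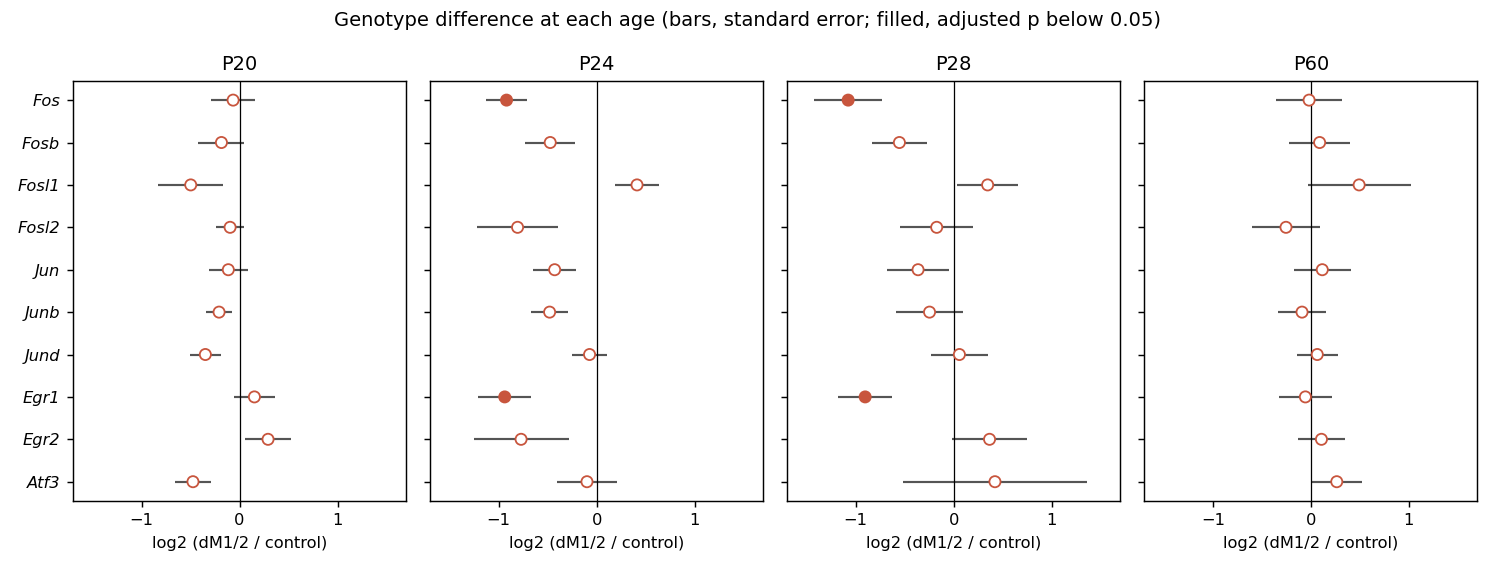
Log2 difference between dM1/2 and control for each gene at each age (points), with the standard error from limma (bars, n = 3 per group) and filled points where the adjusted p was below 0.05. The filled points are Fos and Egr1 at P24 and P28, at -0.92, -0.94, -1.08 and -0.90.

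The other members of the Fos family did not pass at any single age. Fosb, the second inducible Fos protein, was at 25520, 43799 and 34428 normalised reads in P24 controls and at 29207, 21641 and 22738 in dM1/2, with overlap at P24 and at P28, and its differences were -0.47 ± 0.26 and -0.55 ± 0.28. Fosl2, a slower Fos-related protein, was at 5156, 8068 and 17482 in P24 controls and at 6549, 4611 and 4498 in dM1/2. Its P24 difference of -0.81 ± 0.41 was -0.33 without P24 control 3, the highest of the controls. Fosl1, the other Fos-related protein, was at 41.0, 45.2 and 53.6 in P24 controls and at 60.0, 65.5 and 60.5 in dM1/2, so it lay higher in every dM1/2 library at P24 (0.41 ± 0.22, adjusted p = 0.212, limma). It differed by 0.35 ± 0.31 at P28, where the groups overlapped.

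Among the Jun proteins, Jun was at 37276, 42395 and 46238 in P24 controls and at 36593, 30527 and 26841 in dM1/2, and Junb at 19646, 22740 and 24837 against 16218, 13732 and 18371. Neither pair of groups overlapped, but the differences, -0.43 ± 0.22 for Jun and -0.48 ± 0.19 for Junb, did not pass (adjusted p = 0.19 and 0.0994, limma). In all, 4 of the 10 genes (Fos, Jun, Junb and Egr1) were lower in every dM1/2 library than in any control at P24, against 21.0% of all genes, and 1 (Fosl1) was higher, against 23.8%. At P28 the lower genes were Fos and Egr1, 2 of 10 against 23.3% of all genes. At P28 both Jun (-0.36 ± 0.32) and Junb (-0.25 ± 0.34) turned on the library labelled P28 control 3: without it they differed by -0.68 ± 0.23 (adjusted p = 0.0459) and -0.63 ± 0.20 (adjusted p = 0.0349), and Fosb (-0.77, adjusted p = 0.0356) and Atf3 (-0.77, adjusted p = 0.0491) passed too, which made 6 of 10, all lower in dM1/2, against 40.9% of all genes called and 19.1% called as lower in that fit. Col1a1, Col1a2 and Col3a1 together took 21.2%, 39.3% and 4.01% of reads in P28 controls 1, 2 and 3. In the P28 dM1/2 libraries they took 10.9%, 13.7% and 19.2%. The controls kept in the fit without P28 control 3 were thus the collagen-rich ones, and the part of this in the calls was not tested. Jund, the Jun protein that is expressed constitutively in most cells, differed by -0.07 ± 0.18 at P24 and by 0.06 ± 0.29 at P28, the smallest differences of the 10 genes at both ages.

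Egr2 and Atf3 were the most uneven genes among anagen libraries. Egr2, which like Egr1 binds GC-rich sites, was at 914, 1991 and 4241 in P24 controls and at 1327, 968 and 1208 in dM1/2 (-0.77 ± 0.48), and at P28 it differed by 0.37 ± 0.38 in the other direction. Atf3 was at 5355, 9674 and 599 in P28 controls and at 3636, 4093 and 5008 in dM1/2. Its P28 difference was 0.42 ± 0.94, and without P28 control 3 it was -0.77 ± 0.26, so that this library set its sign.

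In telogen the groups were close for Fos and Egr1, and other genes had larger differences that did not pass. At P20 the largest were Fosl1 (-0.50 ± 0.33), Atf3 (-0.48 ± 0.18) and Jund (-0.35 ± 0.16), and at P60 Fosl1 (0.49 ± 0.53). At P20, 0 of 10 genes passed against 0.433% of all genes (limma, 60 of 13845, 2735 at an unadjusted p under 0.05). Fos was at 57038, 39717 and 46851 in P20 controls and at 35913, 59891 and 43047 in dM1/2 (-0.07 ± 0.23), and Egr1 at 39299, 25444 and 28661 against 26966, 39657 and 36733 (0.15 ± 0.21). Both overlapped. The genes without overlap at P20 were Junb, at 26701 to 27776 in dM1/2 and 28785 to 33479 in controls, and Atf3, at 9310 to 14330 in dM1/2 and 15261 to 19289 in controls, which is 2 of 10 against 13.3% of all genes, and neither passed the test (adjusted p = 0.414 and 0.195, limma). At P60 limma called 0.0% of all genes (0 of 14042, 525 at an unadjusted p under 0.05, 26 by DESeq2) and 0 of 10 here. Fos was at 87964, 74800 and 84716 in P60 controls and at 106832, 87628 and 57400 in dM1/2 (-0.02 ± 0.33), and Egr1 at 61094, 66053 and 62444 against 70431, 65474 and 48676 (-0.06 ± 0.27).

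The difference between these effects was tested over all 24 libraries. The mean effect at P24 and P28 minus that at P20 and P60 was -0.96 ± 0.28 for Fos (adjusted p = 0.0145, limma) and -0.97 ± 0.25 for Egr1 (adjusted p = 0.00663), and both passed in all 24 fits that left out a library. The other 8 genes lay between -0.47 and 0.38 and did not pass. The background was 30.2% of all genes called and 14.1% called as more negative in anagen.

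RNA of the DP itself differed between the same groups, which belongs beside these results. Of 16 DP markers, 8 were lower and 1 higher in dM1/2 at P24 (56.25% called, against 26.6% of all genes). At P28, 7 were lower and 3 higher (62.5% called, against 35.5%). At P20 only Sox18 passed, higher in dM1/2 (1.74 ± 0.16, 6.25% called, against 0.433%), and at P60 no gene of any kind passed in limma. Their summed level was 306157 to 372152 normalised reads in P24 controls and 144821 to 188759 in P24 dM1/2, and 146843 to 381358 against 107611 to 128977 at P28. In telogen the sums did not overlap at P20 either, but were higher in dM1/2 (62231 to 75281 against 44936 to 53310), and at P60 they were 38912 to 51891 in controls and 23961 to 49822 in dM1/2. The median of the 16 log2 differences was -0.64 and -0.89 at the anagen ages, 0.53 at P20 and -1.05 at P60. Sostdc1 (-3.05 at P24), Corin (-3.33 at P28) and Fgf7 (-2.18 at P28) fell, while Prdm1 (1.92), Sox18 (1.97) and Bmp4 (0.97) rose at P28. In bulk RNA, fewer cells of a type and less RNA of a gene per cell cannot be told apart, and the part of this shift in the Fos and Egr1 values was not tested.

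Markers of other cells that the sort could hold summed to less than those of the DP at P24 and P28. In telogen the markers of other fibroblasts did not: 8 of them summed to 54301 to 87967 normalised reads in P20 controls and 37525 to 51336 in P20 dM1/2, against 44936 to 53310 and 62231 to 75281 for the DP markers. At P60 they summed to 80313 to 97017 in controls and 79858 to 171151 in dM1/2, above the DP markers in both genotypes. The sum of 15 keratinocyte markers was 211 to 849 normalised reads in P24 controls and 245 to 316 in dM1/2. Of those tested, 2 of 11 were lower at P24 (Epcam and Krt1) and 1 of 9 was higher at P28 (Dsp). That is 18.2% and 11.1% called. Of all genes, 26.6% were called at P24 and 35.5% at P28, which is the background for each list in this paragraph. The inner root sheath keratin Krt71 was at 0 in 4 groups. The sum of 9 immune markers was 179 to 1434 against 170 to 283 at P24, with Cd68 lower out of 5 tested. The sum of 7 endothelial markers was 387 to 1055 against 444 to 809 at P24, with Pecam1 lower out of 5 tested. Of 8 melanocyte markers, 4 were tested at each of these ages and none passed. The 8 summed to 442 to 519 against 394 to 457 at P24. The muscle and sheath markers Myl9 (-1.35) and Itga8 (-0.92) were lower at P24, and their list of 9 summed to 4123 to 11032 against 3344 to 5280, with Myh4 at 0 in 5 groups. Of the 8 markers of other fibroblasts, Plin1 was lower at both ages and Dlk1 higher at P28. Their sums were 7711 to 33201 against 8693 to 13601 at P24, and 5011 to 62422 against 11655 to 19226 at P28. The sums overlapped between genotypes for each of these lists at P24 and at P28, and their part in the Fos and Egr1 values was not tested.

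Across the hair cycle, the control means of 6 of the 10 genes were lower at both anagen ages than at both telogen ages. In controls, Fosl2 averaged, from the youngest age to the oldest, 21243 ± 1244, 10235 ± 6442, 4387 ± 1859 and 22162 ± 7576 normalised reads (SD, n = 3). Atf3 averaged 17098 ± 2037, 3469 ± 1125, 5210 ± 4539 and 20435 ± 3181. Fosl1 averaged 494 ± 102, 46.6 ± 6.42, 33.8 ± 6.93 and 261 ± 132. Each of these genes had its higher means at P20 and P60. Jund (13651 ± 897, 7616 ± 1337, 6331 ± 2250 and 13436 ± 2260), Junb (31408 ± 2395, 22408 ± 2612, 16567 ± 6944 and 47053 ± 5331) and Fosb (62756 ± 16305, 34582 ± 9140, 31800 ± 8737 and 80929 ± 11990) followed the same order of anagen below telogen. Fos differed from them: its control means were, in the same order, 47869 ± 8705, 50029 ± 6501, 57391 ± 19370 and 82493 ± 6858, with both anagen means above P20.

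In controls, 8 of the 10 genes varied over the 4 ages (limma's F test), with 49.0% of all genes called. The exceptions were Fos (adjusted p = 0.148) and Jun (adjusted p = 0.266). The calls for Egr1 (adjusted p = 0.0461) and Egr2 (adjusted p = 0.0495) were near the threshold and passed in 4 and 2 of the 12 fits that left out a library, respectively. Without P28 control 3, Fos passed (adjusted p = 0.0451) and Egr2 did not (adjusted p = 0.116), with 48.5% of all genes called. In dM1/2, all 10 varied, with 59.9% of all genes called. The dM1/2 means of Fos were 46284 ± 12312, 26388 ± 2489, 26042 ± 1669 and 83953 ± 24920 at the 4 ages, and those of Egr1 34452 ± 6646, 26650 ± 4178, 20936 ± 2308 and 61527 ± 11402, so that both were lowest in anagen, where controls were not.

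Between early and mid anagen, 0 of 10 genes passed in controls (5.64% of all genes) and 0 of 10 in dM1/2 (0.623% of all genes). Egr2 in controls came closest: it averaged 2382 ± 1698 at P24 and 604 ± 256 at P28, a difference of -1.81 ± 0.49 (adjusted p = 0.0568, limma), and P24 control 3 held the highest value. At an unadjusted p under 0.05, 2944 genes passed in controls and 1532 in dM1/2.

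Between the telogens, 4 of the 10 genes were higher at P60 than at P20 in dM1/2, and none passed in controls. The 4 were Fos (0.85 ± 0.27, adjusted p = 0.0497, limma), Junb (0.70 ± 0.16, adjusted p = 0.0144), Egr1 (0.84 ± 0.23, adjusted p = 0.0271) and Atf3 (0.99 ± 0.26, adjusted p = 0.0250), against 15.7% of all genes called and 8.6% called as higher. The Fos call passed in only 2 of the 12 fits that left out a library and in 4 of 7 other settings, and Junb passed in 11 of 12, Atf3 in 10 and Egr1 in 8. Egr2 differed by -0.27 ± 0.49 in controls and -0.45 ± 0.26 in dM1/2, and Fosl1 by -1.07 ± 0.39 in controls, and neither gene passed. In controls 0 of 10 passed, with 8.36% of all genes called. The control differences were 0.80 ± 0.32 for Fos, 0.58 ± 0.30 for Junb, 1.05 ± 0.29 for Egr1 (adjusted p = 0.0502) and 0.25 ± 0.76 for Atf3. Whether the rise differed between genotypes was not tested. P60 libraries were the shallowest, and both ages hold different mice.

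The median spread among replicates of a group was similar for these genes and for all genes tested, which were not matched for level. The spread within groups was 0.31 (median SD, log2) over the 10 genes and 0.29 over all genes. It was 0.32 for Fos, 0.29 for Jun and 0.28 for Egr1 and Junb, and it was largest for Atf3 (0.82), Egr2 (0.57), Fosl1 (0.55) and Fosl2 (0.52). Among all genes tested, the spread of Fosl2 lay at percentile 74.4 and that of Atf3 at percentile 89.5. The genes deviated together in several control libraries. P20 control 1 was the highest of its 3 replicates for all 10 genes and P20 control 2 the lowest for all 10, whereas these libraries were highest and lowest for 39.4% and 37.0% of all genes. P28 control 3 was the lowest for all 10 genes and for 35.1% of all genes, and P60 control 1 the lowest for 9 of 10 and for 33.9% of all genes. No dM1/2 library was the highest or the lowest of its group for more than 7 of the 10 genes.

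**Figure D3:**
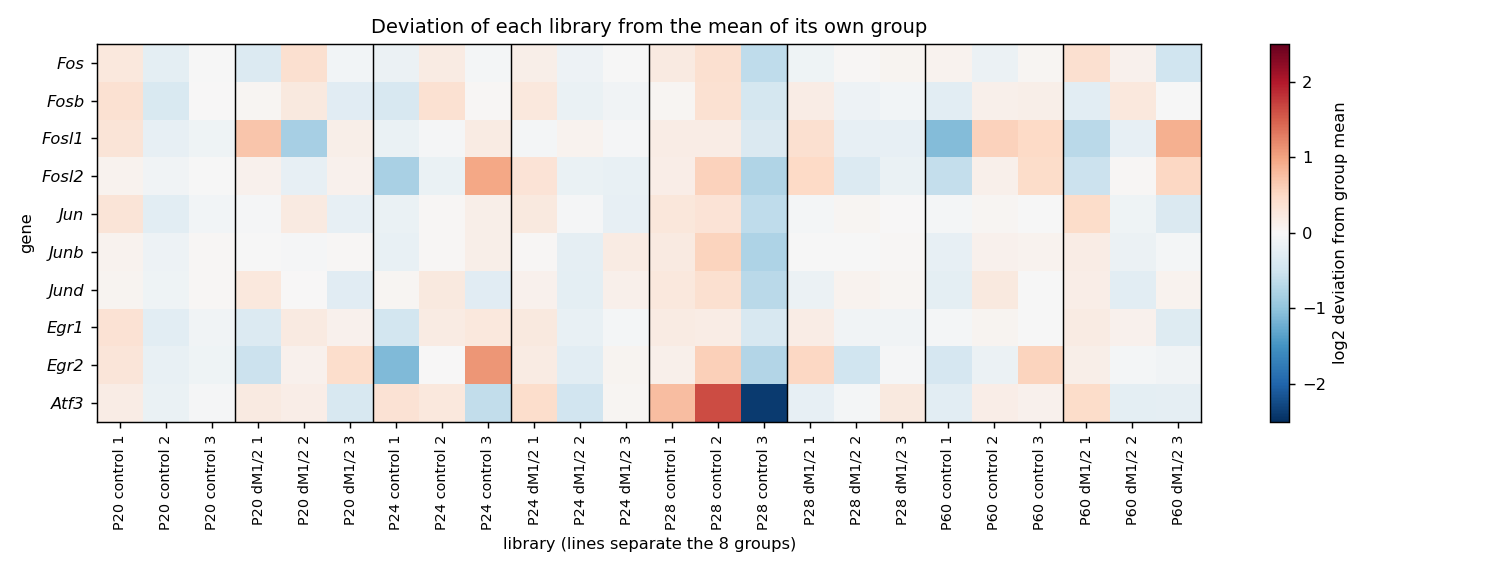
Deviation of each library from the mean of its own group (log2, colour), for the 10 genes (rows) and 24 libraries (columns). P28 control 3 is blue in every row, with its lowest value for Atf3, and P20 control 1 is red and P20 control 2 blue in every row.

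Over the 24 libraries, deviations of Fos from its group means went with those of Jun (Pearson r = 0.86, adjusted permutation p = 0.00889, Spearman rho = 0.75, adjusted permutation p = 0.0126) and of Egr1 (r = 0.78, adjusted permutation p = 0.00889, rho = 0.77, adjusted permutation p = 0.0126), with 100000 permutations within groups and adjustment over 14 relations. Without the libraries farthest from the median of Fos, P28 control 3 and P60 dM1/2 3, r was 0.76 for Jun and 0.70 for Egr1. The group means in this step still included those libraries, so that their influence was not fully removed. Jun held within anagen (0.90) and telogen (0.83), and so did Egr1 (0.70 and 0.87). The unadjusted permutation p values were 0.00127 for Jun and 0.00067 for Egr1. Atf3 (r = 0.69, adjusted permutation p = 0.0662) and Junb (r = 0.65, adjusted permutation p = 0.106) did not pass. Their r was 0.93 and 0.91 in anagen and 0.42 and 0.28 in telogen. Fosb (0.52), Jund (0.47), Egr2 (0.43), Fosl2 (0.06) and Fosl1 (-0.38) did not pass either. The summed levels of the other immediate early genes (0.46), heat shock genes (0.30), keratinocyte markers (0.18) and immune markers (0.37), and the depth of the library (-0.07), passed in no case. Within anagen these r were 0.86, 0.66, 0.61, 0.51 and 0.091, and within telogen -0.21, -0.086, -0.30, 0.17 and -0.32. No r within anagen or within telogen was tested. P28 control 3 lay below its group mean for Fos (-0.63) and for all 4 sums (-0.75, -0.27, -0.56 and -1.47). The anagen r without this library were not computed.

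**Figure D4:**
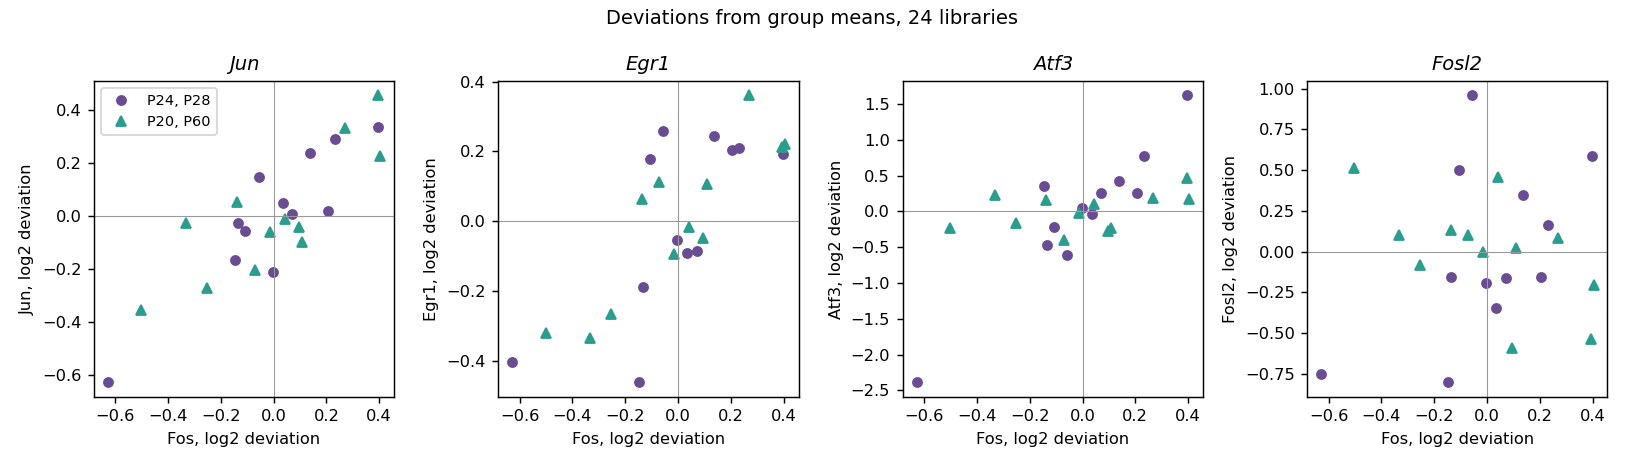
Deviation from the group mean (log2) of Jun, Egr1, Atf3 and Fosl2 (vertical axes) against that of Fos (horizontal axes) in the 24 libraries, with anagen libraries as circles and telogen libraries as triangles. Jun (r = 0.86) and Egr1 (r = 0.78) follow Fos in both, whereas Fosl2 (r = 0.06) does not.

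Of 11975 genes with a mean of at least 50 normalised reads, Jun had the pattern most like Fos over the 24 libraries, followed by Nhsl1 (r = 0.85), Rusc2 (0.82), Slc35a5 (0.80) and Rbp4 (0.79), and Egr1 ranked at 7. Atf3 ranked at 77 and Junb at 160, whereas Fosb ranked at 746 and Jund at 1025. These ranks describe these libraries only, since all pairs share the same normalisation.

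Other immediate early genes moved in both directions. Of 35 tested, 6 were lower and 2 higher in dM1/2 at P24 (22.9% called, against 26.6% of all genes), and 1 was lower and 1 higher at P28 (5.71%, against 35.5%). Cyr61 and Ctgf, matricellular genes induced by stretch and serum, fell at P24 (-1.64 ± 0.29 and -1.27 ± 0.22, log2), and Cyr61 fell again at P28 (-1.06 ± 0.27, adjusted p = 0.0232, limma). Nr4a1, an inducible orphan receptor, averaged 8060 ± 2358 normalised reads in P24 controls and 3488 ± 1077 in dM1/2 (-1.21 ± 0.28). Klf10, an early gene of TGF-beta signalling, rose at both ages (1.03 ± 0.25 and 1.37 ± 0.20), and Ier5 at P24 (0.56 ± 0.13). At P20 the single call was Sgk1, a serum-induced kinase, at -0.81, named after its value was seen. The median of the list was -0.43 and -0.14 at the anagen ages, -0.36 at P20 and -0.014 at P60. Its summed level was 193417 to 289643 in P24 controls and 137991 to 171448 in dM1/2. At P20 it was 416766 to 461384 in controls and 331485 to 353327 in dM1/2, so that the sums were lower in dM1/2 without overlap in this telogen as well.

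Of the kinases and factors that act upstream, 1 of 16 rose and 1 fell at P24, and 2 rose and 2 fell at P28, which at P24 is 2 of 16 against 26.6% of all genes and at P28 is 25.0% against 35.5%. Elk4, a ternary complex factor that binds with SRF at CArG boxes, fell at both ages (-0.58 ± 0.11 and -0.84 ± 0.11), while Srf itself rose at P28 (0.63 ± 0.16). Nab1, a co-repressor of Egr proteins, fell at P28 (-0.91 ± 0.14). Rps6ka1, a kinase downstream of ERK, averaged 244 ± 21.5 in P24 controls and 883 ± 142 in dM1/2, and 145 ± 60.6 and 928 ± 35.2 at P28, so that it rose by 1.84 and 2.76 (log2).

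Of the leucine zipper proteins that can pair with Jun or Fos proteins, Batf3 rose from 25.8 ± 9.65 to 113 ± 21.5 at P24 and from 11.7 ± 4.29 to 125 ± 20.6 at P28, and Batf rose at P28 (1.82 ± 0.49). Atf7 fell at both ages (-0.55 ± 0.14 and -0.71 ± 0.10). In all, 1 of 11 tested partners was higher and 1 lower at P24, and 2 of 12 were higher and 1 lower at P28 (18.2% and 25.0% called, against 26.6% and 35.5% of all genes).

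Genes commonly listed as AP-1 targets went in both directions. At P24, 1 of 15 tested was higher and 4 were lower (33.3% called, against 26.6% of all genes). The osteopontin gene Spp1 averaged 569 ± 143 in controls and 27.3 ± 6.45 in dM1/2 (-4.33 ± 0.26), and the chemokine gene Ccl2 1192 ± 334 against 496 ± 164. At P28, 4 were higher and 2 lower (40.0% called, against 35.5%). The heme oxygenase gene Hmox1 rose at both ages (1.06 ± 0.25 and 2.20 ± 0.43), and at P28 Mmp9, a gelatinase, averaged 4.34 ± 6.44 in controls and 183 ± 97.7 in dM1/2, and Hbegf, an EGF receptor ligand, 70.8 ± 32.8 against 227 ± 15. Ereg, another ligand of that receptor, fell at both ages but was low (44.4 ± 32.2 against 6.36 ± 3.99 at P24), and Sphk1, a lipid kinase, fell at P28 (-1.18 ± 0.15). At P20 the median of the list was -0.65 and its sum was 21695 to 28872 in controls and 14173 to 21329 in dM1/2, without overlap. Membership in this list comes from general knowledge of AP-1, and binding was not measured here.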

How the data were processed

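DP cells went through FACS and a further sort after overnight trypsin and a collagenase digest. Per the labels and the methods, the authors removed rRNA and prepared strand-preserving libraries, single-end reads were trimmed with Trimmomatic and mapped to mm10 with TopHat2, HTSeq gave counts for Ensembl genes, and DESeq2 normalised the 24 libraries jointly; the strand setting of the counting is not given in the sources used here. The deposited signal is the read count of a gene divided by the size factor of its library. Division by the value of 1 read gave whole reads for 100.0% of values (tolerance 0.01 read), and these recovered reads were used for depth and for the count tests. The deposited tables also hold the authors' own means, fold changes and p-values by age; these were not used.

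Tests were limma 3.58.1 with a trend on log2(normalised reads + 1), two-sided, with genes whose mean was under 10 normalised reads left out, adjusted over all genes tested (Benjamini-Hochberg, threshold 0.05). Fold changes are on that log2 scale. Genotypes were compared at each age over 6 libraries, ages within a genotype over 12, and the anagen and telogen effects over 24. Alternatives were a pseudocount of 10, no filter, edgeR 4.0.16 (TMM or DESeq2's size factors), DESeq2 1.42.0, TMM-scaled log2-CPM in limma (prior count of 2), a replicate block, a single fit over 24 libraries and leaving out each library; where that left 2 libraries in a group, the spread was pooled over the groups of the fit. Code was tested on simulated data. With 3 libraries against 3, an exact permutation at a single age cannot go below p = 0.1. The p-values measure the spread between these libraries.

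Gene length is the summed exon length of GENCODE (release M21, on GRCm38), to which 25431 genes matched. In the lists of other genes, 35 of 36 immediate early genes were matched (Cebpd was not analysed here), and 1 immune marker (Itgam) whose symbol names 2 genes in the tables was left out; 1 further listed gene is not reported here. All members were named in every comparison; of each other list, the rises and falls past the threshold at P24 and at P28 that were largest, up to 3 in each direction, were eligible for naming, with the 5 genes of highest r with Fos. Members, lists and tests were chosen with earlier results of these data known.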

Additional observations from a re-analysis of the deposited data

Results flagged for a closer look

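The genotype effect on Fos and on Egr1 differed between anagen and telogen when the difference itself was tested over 24 libraries. For Fos the effect at P24 and P28 minus that at P20 and P60 was -0.96 ± 0.28 (log2, SE, adjusted p = 0.0145, limma), with effects of -0.92 and -1.08 in anagen and of -0.07 and -0.02 in telogen. For Egr1 it was -0.97 ± 0.25 (adjusted p = 0.00663), with effects of -0.94 and -0.90 in anagen and of 0.15 and -0.06 in telogen. The background in this test was 30.2% of all genes called and 14.1% called as more negative in anagen. Fos was lower in dM1/2 in 6 of 6 anagen libraries than in any control of the same age, and so was Egr1. Of all genes, 21.0% lay below every control in dM1/2 at P24 and 23.3% at P28. In telogen, an exact two-sided permutation within P20 and P60 gave p = 0.82 for Fos and p = 0.68 for Egr1. Stage, sex and depth differ between the sets of ages and cannot be told apart. Summed DP markers were also lower in dM1/2 at P24 and P28 and higher at P20. At P60 their sums overlapped between genotypes, while the median log2 difference of these markers was -1.05. The part of the DP markers in the Fos and Egr1 values was not tested.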

How the results depend on the processing

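The counts of called genes among the 10 moved with the setting. With no filter on low values and with a replicate block, 0 passed at P24 (17.5% and 16.9% of all genes called). In these settings 0 passed at P28 as well (24.7% and 26.3%). DESeq2 called 5 at P24, with Fosl2, Jun and Junb beside Fos and Egr1 (33.5%). With the replicate block, 1 (Egr1) differed between anagen and telogen, against 27.7% of all genes, and Fos had adjusted p = 0.0511 (limma). In these fits the Fos differences at P24 and P28 kept their sign. From P24 to P28 in controls, edgeR with either scaling and DESeq2 called 1 (Egr2), and from P20 to P60 in controls edgeR with TMM called 1 (Egr1) and DESeq2 2, and in dM1/2 no filter left 2. With a library left out, the counts ranged from 0 to 4 at P24, 0 to 6 at P28 and 2 to 5 over P24 and P28. From P24 to P28 in controls they ranged from 0 to 1. From P20 to P60 they ranged from 0 to 1 in controls and 1 to 4 in dM1/2. The 6 at P28 and the 5 over P24 and P28 came without P28 control 3, with 40.9% and 52.7% of all genes called. Shares for the other fits with a library left out are not given here. The same replicate numbers did not pair libraries (correlations of same-numbered deviations at P24 were -0.18, 0.04 and -0.40). Signs turned for small or uneven differences. Atf3 at P28 was -0.27 by edgeR with TMM and -0.32 by edgeR with size factors and by DESeq2. Jund at P28 was -0.028 by edgeR with size factors and by DESeq2, and Fos at P60 was 0.0063 in both. With a library left out, the ranges were -0.21 to 0.049 for Jund and -0.40 to 0.14 for Atf3 at P24; -0.55 to 0.12 for Fosl2, -0.63 to 0.031 for Junb, -0.28 to 0.26 for Jund and -0.77 to 1.23 for Atf3 at P28; -0.27 to 0.10 for Fos at P20; and -0.21 to 0.23 for Fos and -0.16 to 0.10 for Egr1 at P60. The r of Fos with Fosl1 was 0.42 in anagen, with Fosl2 -0.59 in telogen and -0.036 without the 2 farthest libraries, and with Jund -0.14 in telogen. Over all genes, calls at P20 were 60 and 663 by DESeq2, 439 with the replicate block and 23 in the single fit; at P24 2366 with the replicate block; and from P24 to P28 1882 in controls by DESeq2 and, in dM1/2, 186 with a pseudocount of 10, 192 and 189 by edgeR and 652 by DESeq2. DESeq2 called 1764 from P20 to P60 in controls. The causes were not tested.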

Other observations

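Heat shock genes, which like the immediate early genes respond to stress during cell isolation, did not move as one list. None of 14 passed at P24 (limma), against 26.6% of all genes. At P28 Hspb1 (1.75 ± 0.40, log2, SE), Hspe1 (1.30 ± 0.14) and Hspd1 (0.65 ± 0.13) rose in dM1/2 while Dnaja1 fell (-0.72 ± 0.13). That is 28.6% of the list called at P28, against 35.5% of all genes. Hspe1 and Hspd1 encode the mitochondrial chaperonins, and Hspe1 averaged 495 ± 38.1 normalised reads in P28 controls and 1223 ± 162 in dM1/2. The summed level of the list was 74050 to 169373 in P24 controls against 76334 to 120755 in dM1/2, and 64965 to 87665 against 76718 to 86764 at P28, so that the groups overlapped at both ages. It was 146685 to 159714 in P20 controls and 117600 to 148575 in P20 dM1/2.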
